A study of Mus musculus with 54 samples.

Results

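The Smc3 sites of mouse neural progenitor cells (NPCs) that carried either wild-type CTCF (NPC-WT) or CTCF without zinc finger 1 (NPC-ΔZF1) were compared. The libraries were 4 of the 54 samples of the series, 2 per genotype, and 44 samples of the series came with a peak list. Overlapping peaks of the 4 Smc3 lists, sharing 1 bp or more, were merged into 42792 sites. Of these, 3677 were called in both NPC-ΔZF1 libraries and in neither NPC-WT library (ΔZF1-only sites, 8.59% of all sites), and 104 were called in both NPC-WT libraries and in neither NPC-ΔZF1 library (WT-only sites, 0.243%). The ΔZF1-only sites were weak and of a mixed kind: 42.3% lay within 1 kb of a transcription start site (TSS), mostly in CpG-rich promoters without a CTCF motif, and most of the rest lay at CTCF motifs in introns or between genes. When each library was held to the same number of peaks, the ΔZF1-only sites numbered 830 (4.34% of 19126 sites) and the WT-only sites 590 (3.08%).

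All 4 libraries came from the mouse embryonic stem cell (ESC) line E14, in which endogenous CTCF carries an auxin-inducible degron with eGFP on both alleles and a mutant OsTIR1 is expressed from Rosa26. Doxycycline-inducible Flag-Halo CTCF, either WT or ΔZF1, sits at the Tigre locus. Both rescue lines descend from 1 parental clone, which also carries an mCherry reporter at Hb9 (Mnx1), and each genotype is a clone of its own. The cells were differentiated for 2 days on laminin, and 1 µM 5-Ph-IAA with 1 µg/ml doxycycline was given for 24 h, so that endogenous CTCF was degraded in both genotypes while the rescue protein was made. Because each genotype is 1 clone, the ZF1 deletion and any other difference between the clones cannot be told apart. The study calls its replicates biological, but neither it nor the labels say whether they were separate cultures, and the p-values measure only the spread between these libraries. Peak lists hold no expression, and the labelled cell type could not be checked against markers here.

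Smc3 is a core subunit of cohesin, the ring-shaped complex that extrudes chromatin loops, and Rad21 is the subunit that closes the ring. CTCF binds a long motif through its zinc fingers and halts extruding cohesin, so that cohesin peaks are usually found at CTCF sites. Cohesin is also detected at active promoters and enhancers. ZF1 is the first of the CTCF zinc fingers and lies outside those that read the core motif.

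The sequences at the summits of 5 leading sites show the kinds of site described here, 50 bases to either side of the summit on the plus strand of GRCm38. Mir704 and Magohb mark the strongest ΔZF1-only sites away from a TSS, Tbx18 and Upk3bl are ΔZF1-only sites near a TSS, and 3632454L22Rik is nearest to the leading WT-only site. Capitals mark the closest match to the 13-base CTCF core consensus, except in Tbx18, where no match with at most 2 mismatches was found and capitals mark the CpG dinucleotides.
Mir704, chr6:47794247-47794347: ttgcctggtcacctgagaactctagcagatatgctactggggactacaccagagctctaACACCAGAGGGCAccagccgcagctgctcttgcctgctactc
Magohb, chr6:131290586-131290686: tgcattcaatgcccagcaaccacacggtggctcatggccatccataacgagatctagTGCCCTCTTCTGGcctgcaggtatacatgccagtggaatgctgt
Tbx18, chr9:87731391-87731491: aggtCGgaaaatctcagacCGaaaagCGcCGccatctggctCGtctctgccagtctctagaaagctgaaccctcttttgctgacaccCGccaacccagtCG
Upk3bl, chr5:136056258-136056358: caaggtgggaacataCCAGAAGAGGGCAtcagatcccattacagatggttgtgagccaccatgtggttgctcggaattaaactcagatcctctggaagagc
3632454L22Rik, chrX:135091247-135091347: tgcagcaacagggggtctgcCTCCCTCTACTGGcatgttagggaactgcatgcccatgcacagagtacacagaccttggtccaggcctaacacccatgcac
Each of the 4 CTCF matches had 1 mismatch to the consensus. The Mir704 and Upk3bl matches lay on the plus strand and the other 2 on the minus strand. The Tbx18 window held 7 CpG dinucleotides, against 1 in the Mir704 window, 2 in Magohb, 1 in Upk3bl and 0 in the WT-only window. In the 250 bp to either side of the summit, GC was 49.7% at Tbx18 and 48.3% at Upk3bl. Both lay below the median of 66.5% at ΔZF1-only sites near a TSS.

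The libraries differed in how many peaks they gave. NPC-WT replicate 1 had 27798 peaks and replicate 2 had 13710, while NPC-ΔZF1 replicates 1 and 2 had 30516 and 34104. NPC-WT replicate 2 thus stood apart from the other 3, and the genotypes did not overlap. The mean log2 peak number was 14.98 ± 0.11 (SD, n = 2) in NPC-ΔZF1 and 14.25 ± 0.72 (SD, n = 2) in NPC-WT, a difference of 0.72 (exact permutation test, two-sided, p = 0.333, the smallest p that 2 against 2 allows). The difference was 0.21 without NPC-WT replicate 2 and 1.23 without NPC-WT replicate 1. Background coverage, recovered from the peak statistics, was 2.13 and 2.30 fragments per bp in NPC-WT and 2.19 and 2.99 in NPC-ΔZF1. The fewest fragments with which a peak was called at genome background were 10 and 12 in each genotype. The median fold enrichment of all peaks was 9.25 and 6.80 in NPC-WT and 7.97 and 6.26 in NPC-ΔZF1, so replicate 2 was the weaker library in both.

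The sites were described first by which libraries called them. Of the 42792 sites, 12144 were called in all 4 libraries (shared sites) and 8519 in all but NPC-WT replicate 2, the library with the fewest peaks. Calls in NPC-ΔZF1 replicate 2 alone made up 7184 sites, in NPC-ΔZF1 replicate 1 alone 3346, in NPC-WT replicate 1 alone 3097 and in NPC-WT replicate 2 alone 263. Most disagreement therefore followed single libraries rather than genotype. A further 3718 sites were called in 1 library of each genotype (mixed sites). They are given below for comparison, but 3427 of them (92.2%) were called in NPC-WT replicate 1 and only 291 (7.83%) in NPC-WT replicate 2, so they mainly describe calls of NPC-WT replicate 1. The count of 3677 ΔZF1-only sites became 12234 when NPC-WT replicate 1 was left out but only 4018 without NPC-WT replicate 2. It was 10960 without NPC-ΔZF1 replicate 1 and 7121 without NPC-ΔZF1 replicate 2. Fewer libraries have to concur in each case. The 104 WT-only sites became 379 and 3201 without NPC-WT replicates 1 and 2, and 309 and 300 without NPC-ΔZF1 replicates 1 and 2.

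**Figure D1:**
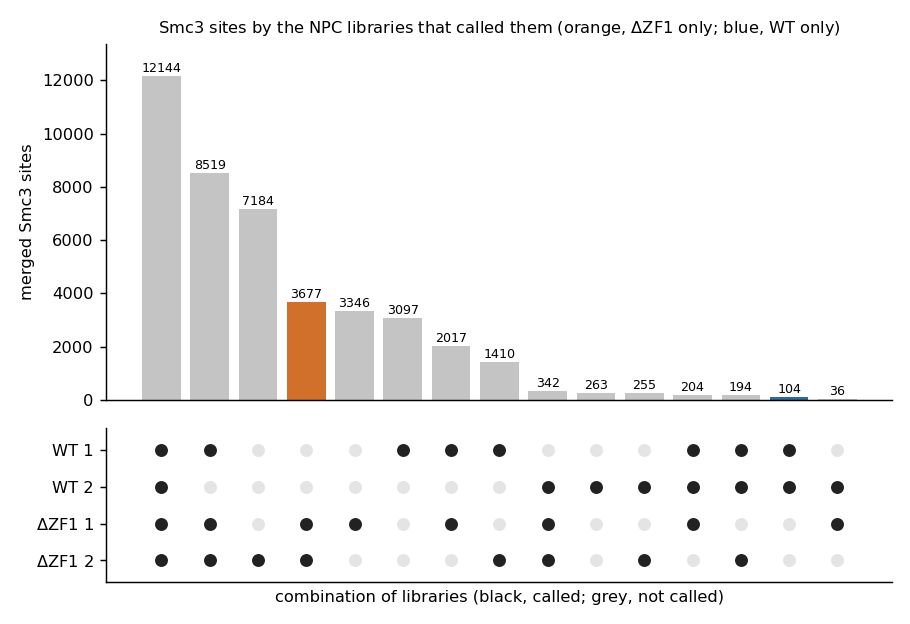
Number of merged Smc3 sites for each combination of the 4 NPC libraries that called them. The 3677 ΔZF1-only and 104 WT-only sites stand beside 12144 sites of all 4 libraries, 8519 of all but NPC-WT replicate 2 and 7184 of NPC-ΔZF1 replicate 2 alone.

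Taking the 13710 peaks with the highest -log10 q of every library changed both the number and the kind of the genotype-specific sites. Of the 830 ΔZF1-only sites at equal peak numbers, 723 had a peak in the full list of NPC-WT replicate 1 and 0 in that of NPC-WT replicate 2, whose list was used whole. The remaining 107 (12.9%) were ΔZF1-only in the full lists as well. Of the 590 WT-only sites, 544 and 502 had a peak in the full lists of NPC-ΔZF1 replicates 1 and 2, 476 were called in all 4 full lists, and 19 (3.22%) stayed WT-only. At equal numbers only 15.7% of the ΔZF1-only sites lay near a TSS and 89.8% held a CTCF motif, against 4.58% and 92.2% of the WT-only sites. The ΔZF1-only sites at equal numbers were thus largely other sites than the 3677. Most of the 3677, near a TSS or not, were not among the 13710 strongest peaks of both NPC-ΔZF1 libraries.

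The 6 leading ΔZF1-only sites at equal numbers lay by Gm38604, 2610028E06Rik, Mkln1os, Gm26759, Ppp1r42 and Galntl6, all away from a TSS. All 6 were called in the full list of NPC-WT replicate 1, at lower fold enrichment. The site at -3.33 kb from the TSS of Gm38604 (chr13:78186356-78186742, negative positions being upstream) had a fold enrichment of 18.2 and 15.0 in NPC-ΔZF1 and 10.5 in NPC-WT replicate 1. The site in an intron of Mkln1os (chr6:31368650-31368871) had 16.3 and 14.6 against 7.93. These differences chose the sites and are given without a test.

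The ΔZF1-only sites lay near promoters more often than the mixed sites as a whole, the shared or the WT-only sites. Within 1 kb of an annotated TSS were 1557 of the 3677 (42.3%, 95% Wilson interval 40.8 to 43.9), against 20.0% (18.8 to 21.4) of the mixed sites, 15.3% (14.6 to 15.9) of the shared sites and 8.65% (4.62 to 15.6) of the WT-only sites. The mixed sites pooled unlike calls: 15.0% (13.8 to 16.2) of those called in NPC-WT replicate 1 and 79.4% (74.4 to 83.6) of those called in NPC-WT replicate 2 lay near a TSS, below and above the ΔZF1-only share. Sites called in a single library came close, at 39.1%, and all sites together stood at 26.4%. These intervals, like all others here, cover counting error only, and sites of the same libraries are not replicates, so no test was made between classes. The share near a TSS at ΔZF1-only sites was 24.0% without NPC-WT replicate 1. Outside these promoters, 28.9% of the ΔZF1-only sites lay in introns, 22.2% between genes and 6.61% in exons.

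CTCF motifs and CTCF peaks were both less frequent at ΔZF1-only than at shared sites. A match to the 13-base CTCF consensus with at most 2 mismatches, starting within 50 bp of the summit on either strand, was found at 55.5% (53.9 to 57.1) of the ΔZF1-only sites, 73.2% of the mixed (77.6% and 21% of those called in NPC-WT replicates 1 and 2), 81.7% of the WT-only and 90.1% of the shared sites. Windows 1000 bp away from the summits held it at 4.92%, 4.90%, 1.92% and 5.64%, so every class was well above the background of its surroundings. All sites together held the motif at 69.0% and sites called in a single library at 44.3%. Without NPC-ΔZF1 replicate 1 the share at ΔZF1-only sites was 36.1%. A CTCF peak in at least 1 of the 8 NPC rescue libraries covered 72.5% (71 to 73.9) of the ΔZF1-only, 66.2% of the mixed and 93.7% of the shared sites. All sites together stood at 74.0%, close to the ΔZF1-only share, WT-only sites at 60.6% and single-library sites at 54.9%. A peak in both CTCF libraries of unmodified E14 NPCs was rarer at ΔZF1-only sites (16.8%) than at mixed (37.5%), WT-only (39.4%) or shared sites (83.8%). That share was 44.6% over all sites and 12.2% at single-library sites.

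**Figure D2:**
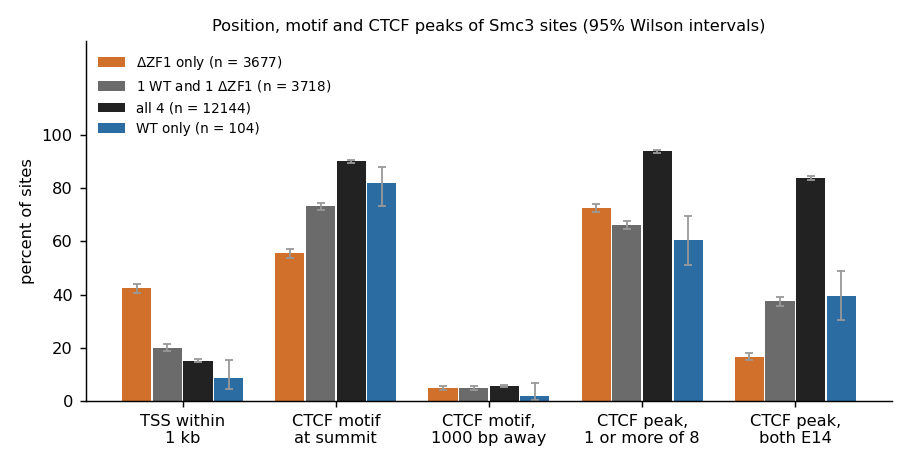
Percent of Smc3 sites within 1 kb of a TSS, with a CTCF motif and with a CTCF peak, by class of site, with 95% Wilson intervals that cover counting error only. ΔZF1-only sites have the highest TSS share (42.3%) and the lowest motif share (55.5%) of the classes drawn.

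The ΔZF1-only sites fell into parts with different sequence. The 1557 sites near a TSS had a median GC content of 66.5% and a median ratio of observed to expected CpG of 0.798 in the 250 bp to either side of the summit, and 29.2% held a CTCF motif. The 2120 other sites had 48.7% GC, a CpG ratio of 0.225 and a CTCF motif at 74.9%. Counted together, 1587 sites (43.2%) held a motif away from a TSS, 1102 (30.0%) lay near a TSS without a motif, 533 (14.5%) had neither, and 455 (12.4%) had both. Among shared sites the motif was frequent in both places, at 71.7% near a TSS and 93.4% elsewhere, whereas mixed sites near a TSS held it at 26.7%, close to the 29.2% of the ΔZF1-only sites. The split in base composition was found in these classes too. Near a TSS the median GC was 59.7% at shared and 64.1% at mixed sites, with CpG ratios of 0.677 and 0.777. Elsewhere the median GC was 48.7% and 44.9%, with CpG ratios of 0.254 and 0.207.

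Within promoters the ΔZF1-only summits lay just downstream of the TSS. Their median position was 60 bp downstream (quartiles -91 and 207), 64.2% lay within 250 bp of the TSS and 38.7% lay upstream of it. Shared summits near a TSS had a median of -51 bp (quartiles -213 and 183) and lay upstream in 60.9%, and mixed summits a median of 83 bp with 35.0% upstream. The nearest TSS belonged to a protein-coding gene at 1389 of the 1557 sites (89.2%), to a lincRNA at 57 and to an antisense gene at 52. Antisense and coding promoters can share a site, and peaks carry no strand.

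Short promoter motifs were counted within 50 bp of the summit on both strands. The GC box GGGCGG, bound by SP and KLF factors, was found at 32.9% of the ΔZF1-only sites near a TSS, 26% of the shared sites near a TSS and 7.03% of the ΔZF1-only sites elsewhere, against 5.46% in windows 1000 bp from the first. CCGGAAG, the core bound by ETS factors, was found at 2.95% of the ΔZF1-only and 2.27% of the shared sites near a TSS. The CCAAT box CCAAT was less frequent at ΔZF1-only sites near a TSS (3.73%) than in windows 1000 bp away (11.2%). These shares follow base composition as well as motifs: 99% of the ΔZF1-only windows near a TSS held at least 1 CpG, and the GC box overlaps CpG by its letters. The other motifs searched were GCGCATGC (NRF1), TGACGTCA (CRE), AAGATGGC (YY1), TGAGTCA (AP-1), ATGCAAAT (octamer), ACAATGG (SOX), GGAATG (TEAD) and CACGTG (E box), and each was at 2.31% or less of the ΔZF1-only sites near a TSS.

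The 10 leading ΔZF1-only sites within 1 kb of a protein-coding TSS lay at Garem1, Lypd1, Mthfd2l, Tbx18, Rgs7bp, Upk3bl, Sec24b, Suclg1, Slc47a2 and Nuggc. The Lypd1 site (chr1:125910568-125910825), 225 bp downstream of the TSS of a gene for a modulator of nicotinic acetylcholine receptors, matched the CTCF consensus without a mismatch. Its fold enrichment was 10.1 and 11 in NPC-ΔZF1, with 33 and 47 fragments at the summit, and none of the 8 CTCF libraries had a peak there. The Tbx18 site (chr9:87731312-87731542), at -181 bp from the TSS of a T-box factor gene, whose CpG-rich summit is printed above, had 10.0 and 9.02 with 31 and 35 fragments, and also no CTCF peak. CTCF was present at the other 8, each with a peak in at least 3 WT CTCF libraries. Over all 1557 ΔZF1-only sites near a TSS only 34.9% had such a peak. At Sec24b (chr3:130060751-130060989), which encodes a COPII coat protein, and at Suclg1 (chr6:73247521-73247693), a subunit of succinyl-CoA ligase, all 4 WT and all 4 ΔZF1 CTCF libraries had a peak. At Upk3bl (chr5:136056152-136056419) it was 4 WT and 1 ΔZF1 CTCF libraries, and at Garem1, an adaptor in receptor tyrosine kinase signalling, also 4 and 1. Garem1 was called in both ESC-ΔZF1 Smc3 libraries and in 1 ESC-WT library.

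Of 21911 protein-coding genes, 1484 (6.77%) had a ΔZF1-only site within 1 kb of a TSS, 1602 (7.31%) a shared site and 9 (0.0411%) a WT-only site. Read against that 6.77%, the lists of genes were described by counts alone. Neural progenitor genes had 5 of 30: Dll3, a Notch ligand, Hes1, a Notch-regulated repressor, Gli3, a Hedgehog-pathway factor, Nes, the intermediate filament nestin, and Sox11, a neural transcription factor that the naming rule left out. Ribosomal protein genes had 9 of 79, among them Rps19, Rpl13a, Rps23 and Rps27a, and housekeeping genes 3 of 18 (Eno1, Ppia and Sdha). Pluripotency genes had 2 of 22 (Tfcp2l1 and Utf1), imprinted genes 3 of the 25 of 33 listed that are protein-coding (Peg3, Zrsr1 and Inpp5f), cohesin and CTCF genes 1 of 19 (Pds5a), immediate early and stress genes 1 of 24 (Atf4), and mesoderm and endoderm genes 0 of 16. None of these lists had a WT-only site, where 9 of all coding genes did. Shared sites lay at 5 of the 19 cohesin and CTCF genes (Ctcf, Esco1, Pds5b, Stag1 and Stag2) and at 5 of the 18 housekeeping genes.

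The sites at these genes were mostly weak. At Dll3 (chr7:28302123-28302445) the fold enrichment was 8.23 and 5.93, with 44 and 35 fragments, and 4 WT and 2 ΔZF1 CTCF libraries had a peak. At Hes1 (chr16:30065186-30065406), 15 bp from the TSS, it was 3.84 and 4.70 with 15 and 24 fragments and no CTCF peak, and at Nes (chr3:87970952-87971213) it was 4.17 and 3.41 with 21 and 23 fragments. Nes also had a shared site within 1 kb of a TSS. Ppia, which encodes cyclophilin A, was near the floor of the lists, at 2.63 and 2.60 with 21 and 28 fragments (chr11:6415372-6415587).

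Away from promoters the leading ΔZF1-only sites were at CTCF motifs. The strongest of all, 9.36 kb from the TSS of Mir704 (chr6:47794164-47794396), had a fold enrichment of 13.6 and 13.8, a CTCF peak in 1 WT and 0 ΔZF1 rescue libraries and in both E14 libraries, and a Smc3 peak in 3 of the 6 other NPC libraries. The site in an intron of Magohb (chr6:131290529-131290692), a gene for an exon junction protein, had 12.9 and 13.6 with 41 and 54 fragments. It was called in both ESC-ΔZF1 and neither ESC-WT library, and in 0 of the 6 other NPC Smc3 libraries. A site in an intron of Ppp3ca (chr3:136905709-136905910), the catalytic subunit of calcineurin, had 14.1 and 10.8 and a CTCF peak in all 4 WT and all 4 ΔZF1 libraries. The site in an intron of Gm29266 (chr14:60529841-60530055) matched the CTCF consensus without a mismatch, yet none of the 8 rescue CTCF libraries and not both E14 libraries had a peak. The other 8 of the leading 12 lay by Gm44323, Stard3nl, Maml2, Rnf43, Kctd3, Ctif, Gm14241 and Gm25935. Of the 12, 11 held the motif, with Maml2 at 3 mismatches, and 5 had a CTCF peak in 3 or 4 WT libraries. Over all ΔZF1-only sites these shares were 55.5% and 28.1%.

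By the rule that chose them, ΔZF1-only sites overlap no NPC-WT peak, so their distance to one depends on that choice and is given as description. The median distance to the nearest NPC-WT summit was 13.2 kb, with 8.10% within 1 kb and 42.9% within 10 kb. The median distance to the nearest shared site was 32.8 kb, against 42.8 kb for the mixed sites. Requiring no NPC-WT peak within 1 kb left 3278 ΔZF1-only sites, 40.4% near a TSS.

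Fold enrichment was low at ΔZF1-only sites in the libraries that called them. The median fold enrichment was 4.82 in NPC-ΔZF1 replicate 1 and 4.51 in replicate 2, and the highest was 14.1 and 13.8, whereas the shared sites had medians of 12.9 and 11. The median number of fragments at the summit was 24 and 30, over a median local background of 4.20 and 5.91. At promoters the background was higher (5.42 and 7.56) than elsewhere (3.42 and 4.65) while the fragments were alike (24 and 32 against 25 and 29). Fragments could be recovered at 3676 of the 3677 sites. At shared sites the medians were 46 and 51 in NPC-ΔZF1 and 47 and 32 in NPC-WT, over the weaker peaks for which the number could be recovered.

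Because weak peaks of any class may lie in different places than strong ones, the shares were also given by strength. Strength is the mean percentile of fold enrichment within the libraries that called a site, with a median of 24.8 at ΔZF1-only, 28.5 at mixed and 71.3 at shared sites. The lists held from 13710 to 34104 peaks, and the classes were called by different libraries. A band is therefore not the same absolute strength in each class. Between percentiles 0 and 10, 80.6% of 567 ΔZF1-only sites lay near a TSS, against 64.9% of 445 mixed and 83.1% of only 77 shared sites. Between percentiles 10 and 20 it was 64.8%, 37.0% and 74.5%, and between 20 and 40 it was 31.6%, 10.2% and 35.2%. In these 3 bands the share at ΔZF1-only sites lay between those of the mixed sites, which were mostly calls of NPC-WT replicate 1, and the shared sites. From percentile 60 upwards only 9.20% of 174 ΔZF1-only sites lay near a TSS, beside 11% of the shared sites. The share with a CTCF motif ran the other way, from 18.7% of ΔZF1-only sites in the lowest band to 93.1% in the highest.

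**Figure D3:**
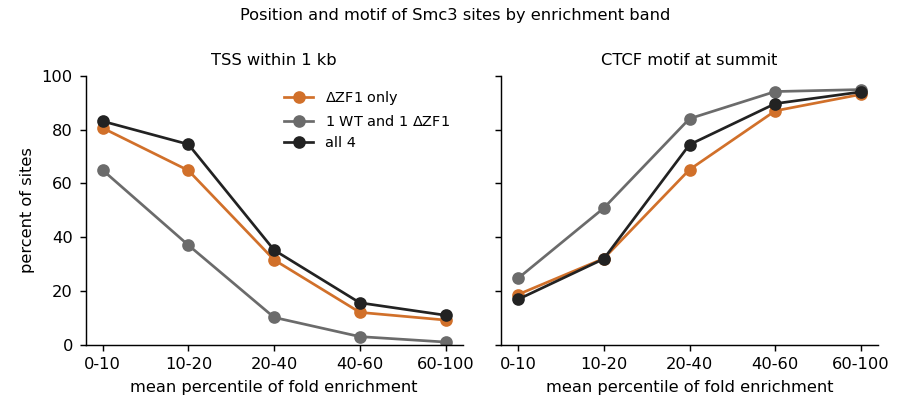
Percent of Smc3 sites near a TSS and with a CTCF motif, by band of the mean percentile of fold enrichment, for ΔZF1-only, mixed and shared sites. In the lowest band 80.6% of ΔZF1-only sites lie near a TSS and 18.7% hold the motif, and in the highest band 9.20% and 93.1%.

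The TSS share was also compared library by library. Promoter peaks, within 1 kb of a TSS, accounted for 15.2% and 19.2% of the NPC-WT libraries and 19.8% and 29.7% of the NPC-ΔZF1 libraries. NPC-ΔZF1 replicate 2 stood above the rest, and the genotypes did not overlap but differed little between NPC-WT replicate 2 and NPC-ΔZF1 replicate 1. The means were 24.8% ± 6.98 (SD, n = 2) and 17.2% ± 2.89 (SD, n = 2), a difference of 7.58 percentage points (exact permutation test, two-sided, p = 0.333), which was 2.64 without NPC-ΔZF1 replicate 2. With 13710 peaks per library the shares were 10.4% and 19.2% in NPC-WT and 12.4% and 14.1% in NPC-ΔZF1, and the difference turned to -1.55 points (exact permutation test, p = 1). This cut was unlike between libraries, since NPC-WT replicate 2 was kept whole, down to a -log10 q of 2.01. It ended at 25.0 in NPC-WT replicate 1 and at 22.2 and 21.5 in NPC-ΔZF1. Both NPC-ΔZF1 shares lay above that of NPC-WT replicate 1 and below that of NPC-WT replicate 2. In all 7 Smc3 groups of the series replicate 2 had the higher TSS share, for example 9.18% and 17.2% in E14 NPCs and 8.78% and 22.5% in NPCs with an early polyA signal in Podxl. The part of library quality in the promoter sites was not tested.

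CTCF libraries of the same cells, which had no part in choosing the sites, were then examined. A CTCF peak covered 47.2%, 33.9%, 28.6% and 35.4% of the ΔZF1-only sites in the 4 WT libraries and 33.5%, 10.3%, 4.81% and 59.6% in the 4 ΔZF1 libraries. The ΔZF1 libraries ranged far wider than the WT libraries, and the genotypes overlapped. The mean was 27.1% ± 25.0 (SD, n = 4) in ΔZF1 and 36.2% ± 7.84 (SD, n = 4) in WT, a difference of -9.19 points (exact permutation test, two-sided, p = 0.543). Near a TSS the difference was -4.13 points (exact permutation test, p = 0.857) and elsewhere -12.9 points (exact permutation test, p = 0.229), neither beyond the spread. The ΔZF1 CTCF libraries held 5755 to 33452 peaks and the WT libraries 15052 to 30555, with background coverage of 0.421 to 2.09 and 0.529 to 2.23 fragments per bp. With 5755 peaks from each library the difference was 0.993 points. At shared sites the means were 43.1% ± 16.5 and 69.0% ± 15.7 (SD, n = 4 each, exact permutation test, p = 0.0857), with overlapping genotypes.

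Rad21, the other cohesin subunit mapped, was hardly called at the ΔZF1-only sites, and seldom at the mixed sites. The Rad21 libraries had a peak at 10 and 21 of the 3677 ΔZF1-only sites in NPC-WT (0.272% and 0.571%) and at 31 and 49 in NPC-ΔZF1 (0.843% and 1.33%). The genotypes did not overlap, and the difference was 0.666 points (exact permutation test, two-sided, p = 0.333). With equal Rad21 peak numbers it was 0.15 points. At the shared Smc3 sites Rad21 was called at 33.3% and 51% in NPC-WT and 33.3% and 39.6% in NPC-ΔZF1, from lists of only 4774 to 8144 peaks, and a site without a call may still hold Rad21 below the calling threshold.

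The same rescue lines before differentiation gave Smc3 libraries that the choice of sites did not use. Of the ΔZF1-only sites, 6.77% and 1.52% had a Smc3 peak in the ESC-WT libraries and 11.6% and 8.43% in the ESC-ΔZF1 libraries. The genotypes did not overlap, and the difference was 5.86 points (exact permutation test, two-sided, p = 0.333). With 8169 peaks per ESC library it was 0.0816 points (exact permutation test, p = 1). At mixed sites the shares were 27.5% and 3.66% in ESC-WT and 23.5% and 6.24% in ESC-ΔZF1, with overlapping genotypes. Smc3 libraries of other NPCs had a peak at 7.86% and 10.6% of the ΔZF1-only sites in E14, 3.97% and 14.5% in the Podxl polyA line and 3.89% and 6.09% in the Grb10 polyA line, and their background coverage was only 0.276 to 0.547 fragments per bp. At shared sites these shares were 75.8% and 73.1%, 56.8% and 66.0%, and 68.5% and 58.3%. At mixed sites they were 22.4% and 12.3%, 9.55% and 12.9%, and 16.7% and 8.96%.

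**Figure D4:**
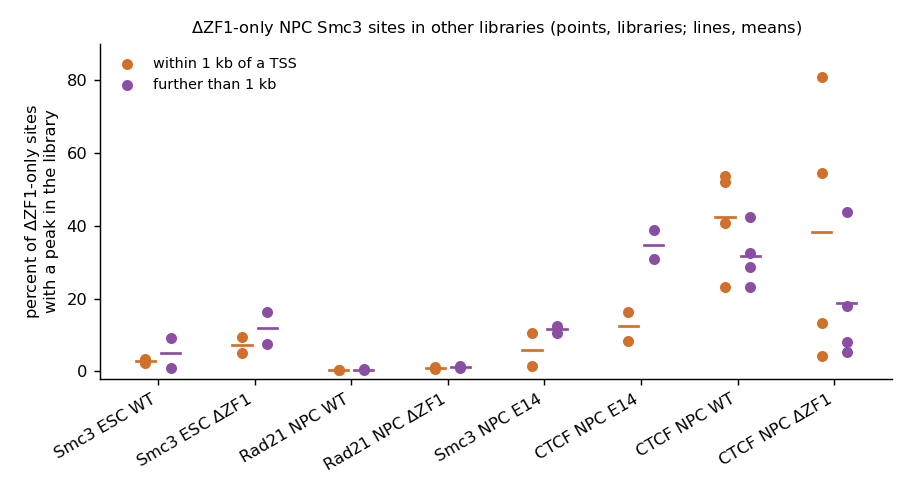
Percent of ΔZF1-only sites overlapped by a peak in libraries that were not used to choose them, with 1 point per library and a line at the mean of each group, for sites within 1 kb of a TSS (orange) and further away (purple). The ΔZF1 CTCF libraries range from 4.11% to 81% of sites near a TSS, the WT CTCF libraries from 23.1% to 53.7%, and all Rad21 libraries lie at or below 1.42%.

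The 104 WT-only sites were few, lay mostly away from promoters and usually held the CTCF motif. Their median fold enrichment was 7.08 and 4.88 and their median fragment number 26.5 and 20 in NPC-WT replicates 1 and 2. The leading one lay at -55.1 kb from 3632454L22Rik (chrX:135091151-135091373), with a fold enrichment of 12.4 and 8.79 and with 38 and 28 fragments. The next was in an intron of Sergef (chr7:46563907-46564182), at 13.1 and 8.47, and was also called in 1 library of each ESC genotype. The other 4 named lay by Gm22777, Gm38642, 1700047M11Rik and 1700025G04Rik. Of the 6, 1 (Gm38642) was on distal chromosome 9, a region with 18 of the 104 WT-only sites.

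At the 12144 shared sites the relative height of the peaks was compared. Fold enrichment was ranked within each library and turned into normal scores, so that a difference is in standard deviations of the ranking and takes out the strength of the library. limma called 25 sites lower in NPC-ΔZF1 (0.206% of those tested) and 31 higher (0.255%) at a Benjamini-Hochberg adjusted p under 0.05, and 874 and 834 had an unadjusted p under 0.05. Leaving out 1 library left 1 genotype with a single library, and both counts moved each time. The sites tested then numbered 12506 and 20663 without NPC-WT replicates 1 and 2, and 12339 and 12337 without NPC-ΔZF1 replicates 1 and 2. Such counts are not comparable with the main ones and are not given. When the replicate number was blocked, which leaves less to estimate the error from, limma called 301 lower and 279 higher. Of the sites tested, 90.1% held a CTCF motif, 15.3% lay near a TSS and 63.4% had a CTCF peak in 3 or 4 WT libraries. Of the 25 lower sites 24 (96%) held the motif, 1 (4%) lay near a TSS and 14 (56%) had such a CTCF peak. Of the 31 higher sites 26 (83.9%) held the motif, 10 (32.3%) lay near a TSS and 25 (80.6%) had such a CTCF peak. These counts are too small to compare beyond description.

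The site with the strongest rise was at -4.44 kb from the TSS of Pmp22, a myelin protein gene (chr11:63124319-63124844). Its fold enrichment was 7.53 and 5.30 in NPC-WT and 27.3 and 19.9 in NPC-ΔZF1 (difference of normal scores 2.56, SE 0.34, limma adjusted p = 0.00216). A site in an exon of Gm12522 (chr3:108380708-108381007) had 8.64 and 7.59 against 30.0 and 30.3 (2.44, SE 0.35, limma adjusted p = 0.0022). The third named, 599 bp from the TSS of Lamc1, the laminin gamma 1 gene (chr1:153331941-153332705), had 5.47 and 3.74 against 15.7 and 14.2 (2.29, SE 0.36, limma adjusted p = 0.00654). At all 3 sites the genotypes did not overlap. In the other direction, a site at -16.1 kb from Mir467h (chr9:115365276-115365858) had a fold enrichment of 35.3 and 20.5 in NPC-WT and 15.9 and 12.2 in NPC-ΔZF1 (-1.84, SE 0.26, limma adjusted p = 0.0022). An intronic site of Pafah2 (chr4:134409351-134409674), a phospholipase gene, had 34.1 and 19 against 17 and 12.6 (-1.62, SE 0.26, limma adjusted p = 0.00654). An intronic site of Col6a6, a collagen gene (chr9:105693571-105694352), had 71.6 and 33.3 against 43.7 and 31.0 (-0.92, SE 0.16, limma adjusted p = 0.012). The fold enrichments did not overlap between genotypes at Mir467h and Pafah2 but did at Col6a6, where NPC-WT replicate 2 was below NPC-ΔZF1 replicate 1.

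Where the sites lay along the chromosomes differed from the genome as a whole in a few places. On chromosome 9, 14 of the 25 lower sites lay between 105.694 and 123.159 Mb. In the part of the chromosome from 100 Mb on, a boundary set after the values were seen, the 293 shared sites had median normal scores of 0.33 and 0.41 in NPC-WT and -0.22 and -0.16 in NPC-ΔZF1, and 87.0% of them were lower in NPC-ΔZF1, against 49.6% of all shared sites. The median difference over these sites was -0.59. Below 100 Mb the median difference was 0.01 over 485 sites. The same part held 12 ΔZF1-only sites among its 839 sites (1.43%, against 8.59% in all) and 18 WT-only sites (2.15%, against 0.243%), and at equal peak numbers 1 and 47. The difference between the means of the library medians was -0.55 (exact permutation test, two-sided, p = 0.333).

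Of the other libraries of the same clones, ESC Smc3 and NPC Rad21 gave like values for distal chromosome 9, and NPC CTCF gave a smaller one. In ESC Smc3 the same difference of library medians was -0.60 over 154 sites (exact permutation test, p = 0.333), and 83.1% of sites were lower in ESC-ΔZF1. In NPC Rad21 it was -0.75 over 67 sites (exact permutation test, p = 0.333), with 88.1% lower. In NPC CTCF it was -0.15 over 41 sites (exact permutation test, p = 0.229), with 53.7% lower, against 49.5% of all CTCF sites compared. Over the shared sites that each library called, the E14 Smc3 libraries stood at -0.07 and -0.07 there, the Podxl polyA libraries at -0.19 and -0.11 and the Grb10 polyA libraries at 0.04 and -0.01, between the NPC-WT values of 0.33 and 0.41 and the NPC-ΔZF1 values of -0.20 and -0.18 or near the latter. Since each genotype is 1 clone, a property of the clone and the ZF1 deletion cannot be told apart here.

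Chromosomes X, 11 and 19 also departed from the rest. On X the median difference at 153 shared sites was -0.39, and 34 of 819 sites (4.15%) were ΔZF1-only. Over the shared sites each library called there, the median scores were 0.06 and 0.02 in NPC-WT, -0.41 and -0.36 in NPC-ΔZF1 and 0.18 and -0.06 in E14. On chromosome 11 it was 0.08, 355 of 3120 sites (11.4%) were ΔZF1-only, and 9 of the 31 higher sites lay there, 8 of them between 59 and 71 Mb. This chromosome held 7.35% of the sites tested. On chromosome 19 it was 0.16, 122 of 1141 sites (10.7%) were ΔZF1-only and 4 of the 31 higher sites lay there. ESC Smc3 gave differences of -0.59 on X, 0.23 on 11 and 0.15 on 19, with the same signs. Without distal chromosome 9, chromosome 11 and chromosome X, an alternative chosen after the data were seen, 3276 ΔZF1-only and 73 WT-only sites remained, and limma called 6 sites lower and 12 higher.

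**Figure D5:**
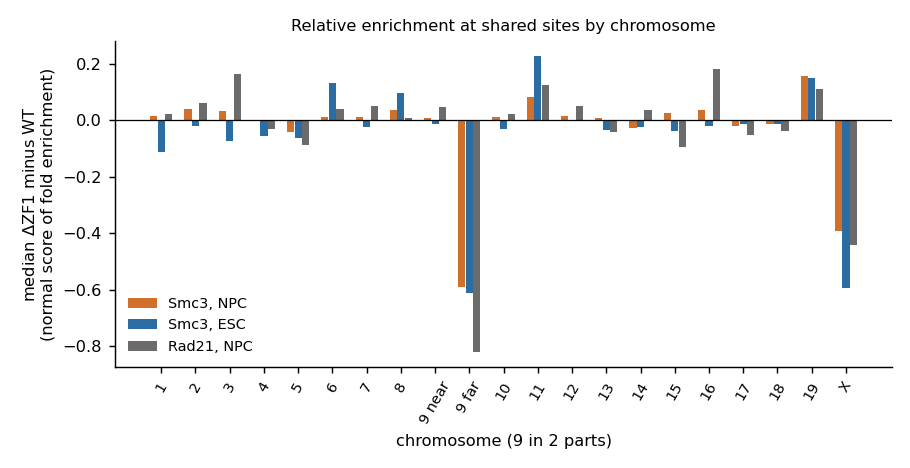
Median difference between ΔZF1 and WT in normal score of fold enrichment, by chromosome, over sites with a peak in every library of the kind, for NPC Smc3 (orange), ESC Smc3 (blue) and NPC Rad21 (grey). Chromosome 9 is drawn in 2 parts, below 100 Mb (near, 0.01 in NPC Smc3) and from 100 Mb on (far, -0.59), and X is at -0.39.

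Of the 5 genes central to the study, 1 (20%) had a ΔZF1-only site within 1 kb of a TSS, beside 6.77% of all protein-coding genes. Podxl, whose RNA was cut short in one of the polyA lines, had 4 Smc3 sites, of which 2 in introns were shared, 1 outside the gene, 44.6 kb downstream of the TSS, was called in all but NPC-WT replicate 2, and 1 at the TSS was ΔZF1-only. The TSS site (chr6:31563609-31564072), 146 bp downstream, had a fold enrichment of 2.49 and 2.85 with 29 and 44 fragments, among the weakest in the lists. Grb10 had 3 intronic sites, 2 shared and 1 called in both NPC-ΔZF1 libraries and 1 NPC-WT library. The Ctcf promoter had a shared site (chr8:105635964-105637496), with 4.90 and 6.98 in NPC-WT and 11.5 and 12 in NPC-ΔZF1, which limma did not call. The Smc3 promoter had a site in both NPC-ΔZF1 and 1 NPC-WT library, and no site was found at Rad21.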

How the data were processed

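The peak lists were deposited by the authors as 1 MACS2 narrowPeak file per library. As the study's methods state, reads were aligned to mm10 with Bowtie2, alignments with a mapping quality below 30 were removed with SAMtools, duplicates were removed with Picard and blacklisted regions with bedtools, and peaks were called per library from paired-end fragments at q 0.01. Tool versions, and which input served which library, are not given in the sources used here. The deposited columns used were the fold enrichment (a ratio of the summit over its local background), the -log10 p and -log10 q values of the authors' peak caller, and the summit offset. No read counts were at hand, so no count test was run.

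Peaks sharing 1 bp or more were merged. TSSs, exons and introns came from GENCODE vM21 (GRCm38), and sequence from the GRCm38 genome. A TSS site lies within 1 kb of a TSS. Fragments at a summit were recovered from fold enrichment and -log10 p (up to 60) as the best-fitting whole number under the Poisson model. In every library the -log10 p of that number came within 0.002 of the deposited one at 99.88% or more of these peaks. Libraries were compared with exact permutation tests (2 against 2 allows p = 0.333 at best, 4 against 4 p = 0.0286), and shared sites with limma 3.58.1 (R 4.3.3) on normal scores of the rank, tested on simulated data with 200 changed sites. The simulated noise was independent between sites and held no regional differences, so it does not bear on calls that cluster along a chromosome. Other steps used Python 3.11.15 and scipy 1.17.1. Named were the 12 leading ΔZF1-only sites by mean percentile of fold enrichment, the leading 10 at coding TSSs, 6 WT-only, 6 ΔZF1-only at equal peak numbers, 3 lowered and 3 raised by limma, up to 4 genes of each list, and the sites of Podxl, Grb10, Ctcf, Smc3 and Rad21. A site is named by the gene it lies in, else by the nearest TSS. Alternatives were equal peak numbers, a -log10 q of at least 5, another joining of peaks, no peak of the other genotype within 1 kb, 1 library left out and a replicate block. The members and lists were chosen with earlier results of these data known. The result for 1 gene list is not reported here. CTCF and Rad21 libraries of ESCs, CTCF libraries of the polyA lines and inputs were not used here.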

Additional observations from a re-analysis of the deposited data

How the results depend on the processing

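Of 90 alternative values, 43 were classed as unchanged, 45 moved and 2 changed direction. For differences between libraries, the unchanged class holds every value that kept its sign, whatever its size. It therefore does not mean that the value stayed near the reported one. At equal peak numbers the ESC Smc3 difference fell from 5.86 to 0.0816 points and the Rad21 difference from 0.666 to 0.15 points. Both were classed as unchanged. ΔZF1-only and WT-only sites numbered 830 and 590 at equal peak numbers by -log10 q and 798 and 529 by fold enrichment, and 4018 to 12234 and 300 to 3201 with 1 library left out. A -log10 q of at least 5 (2981 and 88), summits within 150 bp (3617 and 141) and no other-genotype peak within 1 kb (3278 and 98) changed them less. The TSS share of ΔZF1-only sites was 39.3% for coding genes, 15.7% at equal numbers, 36.6% at the stricter q, 40.4% with no peak within 1 kb and 24.0% to 53.9% with 1 library left out. The CTCF motif share was 31.0% at 1 mismatch, 89.8%, 63.1% and 58.1% under those settings and 36.1% to 75.4% with 1 library left out. The CTCF peak share was 28.7% for 3 of 4 libraries of a genotype, 84.5% at equal numbers and 61.6% to 78.1% with 1 library left out. Equal peak numbers keep the shortest list whole and only the strongest peaks of the others. The 2 changes of direction, both at equal peak numbers, were the TSS share of peaks (-1.55 points) and the CTCF share at ΔZF1-only sites (0.993 points), and the cause was not tested. With 1 library left out these differences were 2.64 to 12.5 and -20.03 to -1.77 points, Rad21 0.422 to 0.911, ESC Smc3 3.24 to 8.49, and log2 peak number 0.21 to 1.23. limma called 89 lower and 96 higher sites on median-centred log2 fold enrichment, 6 and 12 without distal chromosome 9, chromosome 11 and X, and 6 to 46 and 9 to 76 with 1 library left out. Genotypes share replicate numbers. Replicate 2 had the higher TSS share in 7 of 7 Smc3 groups, and the replicate differences correlated at 0.15 over shared sites, but no label ties a number to a batch or day and 2 pairs cannot settle a pairing, so the block is given as an alternative. With the replicate block limma called 301 lower and 279 higher, and the differences in log2 peak number, TSS share and CTCF share kept their values of 0.72, 7.58 and -9.19 (exact sign flips, p = 0.5, 0.5 and 0.625). The leave-one-out values for Rad21 and ESC Smc3 and the exclusion of chromosomes were added after the data were seen. No site with too few fragments to be called (10 or 12 at genome background) can be seen in a peak list, which limits statements on absence.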
